A study of Mus musculus with 3 samples.

Results

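The 8 genes described here encode enzymes of cholesterol synthesis and the proteins that switch the pathway on and off: Hmgcs1, Sqle, Srebf1, Srebf2, Scap, Insig1, Insig2 and Mbtps1. They were chosen by name, with earlier results of these data known. An RBFOX2 crosslink cluster belonged to a gene when its midpoint lay inside the annotated gene span (GENCODE M21, mouse genome GRCm38) on the strand of the gene. By this rule 75 of the 87021 deposited clusters (0.0862%) fell in the 8 genes, and they held 2248 of 2850863 counts (0.0789%). None of these clusters was shared with another annotated gene.

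RBFOX2 is an RNA-binding splicing factor. It was immunoprecipitated with an RBM9 antibody from primary hepatocytes, the parenchymal cells that perform most metabolic work of the liver, isolated from C57BL6/J mice on a control diet, plated overnight and irradiated with UV at 150 mJ/cm2. The 3 eiCLIP libraries form a single group with no treatment or genotype contrast, and the labels list 3 livers and 3 pellets for each of them, whereas the study's methods describe cultures of 2 mice each. eiCLIP is a crosslinking and immunoprecipitation method in which the start of each cDNA marks the crosslinked nucleotide, a cluster is a stretch of such positions, and its count is the number of cDNAs that start in it, pooled by the authors over the 3 libraries. No spread between libraries can therefore be given for any value below, and every interval (95%) covers counting error only.

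Cells make cholesterol from acetyl-CoA through a long chain of enzymes, and the liver carries much of this synthesis. The transcription factors SREBP1 and SREBP2 are made as precursors in the endoplasmic reticulum membrane, where SCAP binds them. When sterols are scarce, SCAP carries the precursors to the Golgi and proteases release the active factors, which switch on the synthesis genes. When sterols are plentiful, the INSIG proteins hold SCAP in the endoplasmic reticulum. RBFOX proteins recognise GCAUG, written GCATG in DNA letters, and as splicing factors they are known to act mostly from introns next to exons, whereas contacts in 3′ UTRs have been linked to mRNA stability and translation.

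Sequence was taken from annotated transcripts (GENCODE M21), and no genome sequence was used here, so it covers exons and the few introns that an annotated transcript retains. Of the 75 clusters, 28 had sequence over their whole length with 50 nt added on each side, and 4 of these windows held GCATG (14.3%, Wilson interval 5.70 to 31.5%). Over all clusters with sequence the share was 20.1%, inside that interval. The 4 sites are printed 5′ to 3′ on the gene strand with GCATG in capitals, since they are where a crosslink cluster and the RBFOX motif met in these genes.
Hmgcs1, 3′ UTR, chr13:119707875-119707904, plus strand: tggggagatggtGCATGtaatttttttgca
Hmgcs1, coding exon 3, chr13:119700043-119700072, plus strand: gatacaaccaatGCATGctatgggggcaca
Sqle, 3′ UTR, chr15:59331011-59331040, plus strand: gcttgtgtataaGCATGtaaatataagcct
Insig2, 3′ UTR, chr1:121304701-121304730, minus strand: gtgtctgtgtgtGCATGtgcccatgctttc
In 3 of the 4 a T precedes the motif, giving TGCATG, and the exception is Sqle. The motif lay inside the cluster at the Hmgcs1 3′ UTR site and at the Sqle site, 54 and 77 nt downstream of the cluster's first base. At the Hmgcs1 coding site and in Insig2 it lay outside, 46 and 34 nt past the cluster's end.

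All 8 genes had a cluster, beside 41.8% of the 21951 annotated protein-coding genes. The 41.8% counts every annotated gene, whether or not hepatocytes express it. Since the 8 genes were chosen with earlier results known, this is a description and no measure of enrichment. Counts per gene were very uneven. Hmgcs1 had 1155 counts in 16 clusters (exact Poisson interval 1090 to 1220) and Insig2 had 628 in 29 clusters (580 to 679), and together these genes held 60.0% of the 75 clusters and 79.3% of their count. Srebf2 followed with 198 counts in 13 clusters (171 to 228). The remaining 5 genes had between 3 and 5 clusters each. Their sums were 70 in Scap (54.6 to 88.4), 51 in Sqle and in Insig1 (38.0 to 67.1 each), 49 in Srebf1 (36.3 to 64.8) and 46 in Mbtps1 (33.7 to 61.4). These intervals overlap one another, so counting error alone left the order of the last 5 genes unresolved. The intervals of Hmgcs1, Insig2 and Srebf2 overlapped neither each other nor those of the rest. All of these intervals lack the spread between libraries, and clusters under 10 counts are not in the sums. Differences between the genes were therefore not tested. Among the 10738 genes with a cluster, whose median was 3.00 clusters and 53.0 counts, Hmgcs1 ranked 288 by summed count, Insig2 603 and Srebf2 2091. The other 5 ranked between 4604 and 5737, close to the median gene.

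Insig2 and Hmgcs1 had the most clusters per length as well as in number. Insig2 had 1.03 clusters per kb over 28.2 kb and Hmgcs1 0.895 per kb over 17.9 kb, against a median of 0.128 per kb over all genes with a cluster. Srebf2, the longest of the 8 at 58.2 kb, had 0.223 per kb. Insig1, the shortest at 7.30 kb, had 0.411 per kb, and Scap and Mbtps1, both over 50 kb, had 0.0968 and 0.0593 per kb. The counts were not divided by the amount of each RNA in the cells, and no RNA levels or input libraries were analysed here, so a gene's count reflects both how much of its RNA was present and how much of that RNA was crosslinked, and these cannot be told apart.

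**Figure D1:**
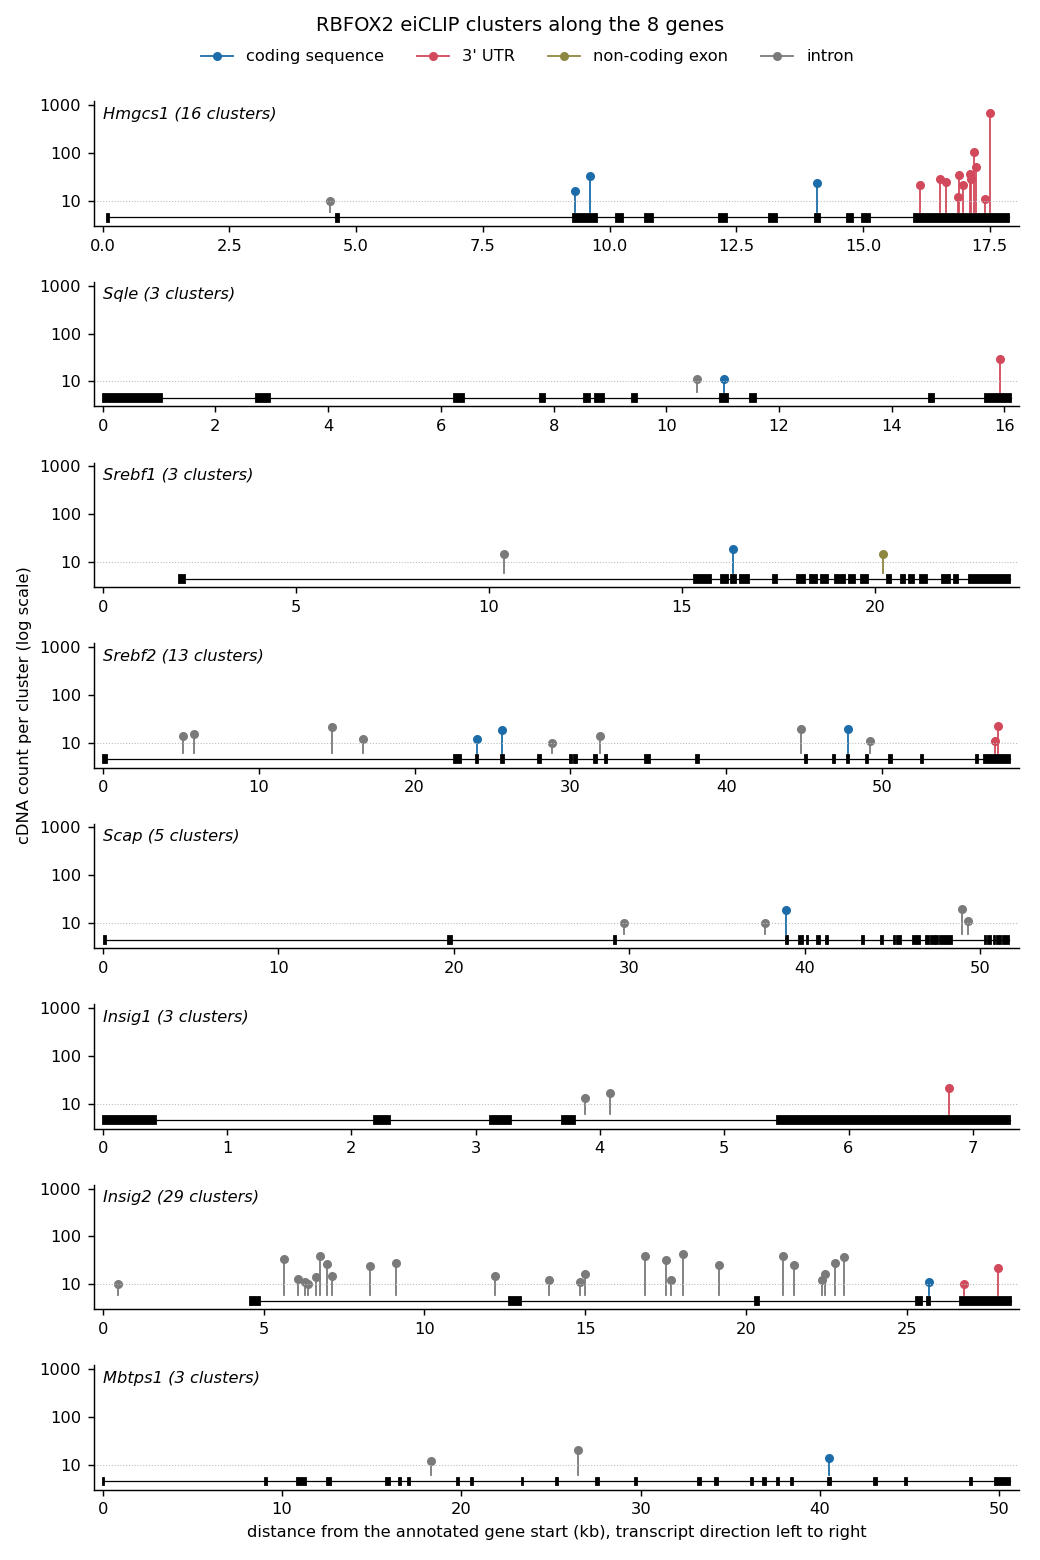
Clusters along the 8 genes. The horizontal axis gives the distance from the annotated gene start in kb, in the direction of transcription; black boxes are the exons of the coding transcript with the longest coding sequence (short exons are widened to stay visible), each pin is a cluster with its cDNA count on a log scale, pin colour gives the annotation class and the dotted line marks the lowest count in the list, 10. Pins crowd at the 3′ end of Hmgcs1, reaching 700 counts, and across the first 3 introns of Insig2.

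The 8 genes differed in where on the transcript the crosslinks lay. Introns held 45 of the 75 clusters (60.0%, Wilson interval 48.7 to 70.3%) but 37.8% of the count. The 3′ UTRs held 18 clusters (24.0%, 15.8 to 34.8%) and 52.8% of the count, coding sequence held 11 (14.7%, 8.39 to 24.4%), a non-coding exon held 1, and 5′ UTRs held none (Wilson upper bound 4.87%). Over all clusters in protein-coding genes, introns held 68.6%, 3′ UTRs 13.8% and coding sequence 14.6%. The intronic and coding shares of the 8 genes were within counting error of these values, and the 3′ UTR share lay above, though clusters of a gene share their source and are not independent. That excess rested on Hmgcs1: without it the 3′ UTR share was 10.2% (4.74 to 20.5%). Hmgcs1 and Insig2 pulled in opposite directions, the intronic share being 74.6% without Hmgcs1, 41.3% without Insig2 and 60.0% without both.

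**Figure D2:**
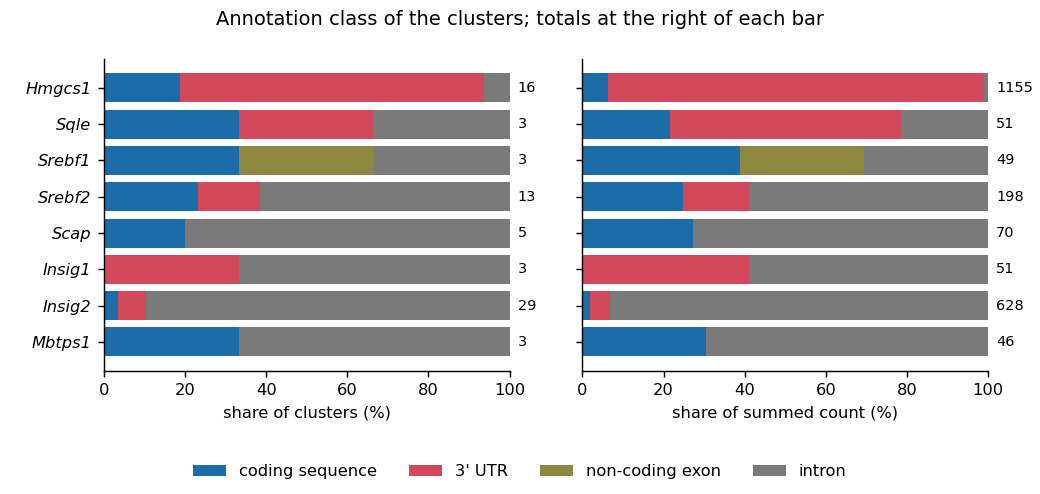
Annotation class of the clusters in each gene, as a share of its clusters (left) and of its summed count (right), in percent; the totals stand at the right of each bar. In Hmgcs1 the 3′ UTR holds 92.8% of the count and in Insig2 introns hold 93.2%, while in Sqle and Srebf1 each of the 3 clusters has a class of its own.

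Hmgcs1 (ENSMUSG00000093930.2, chr13:119690379-119708260, plus strand) encodes the cytosolic HMG-CoA synthase, the enzyme just before HMG-CoA reductase in the mevalonate pathway. Crosslinking was concentrated in its 3′ UTR, where 12 of its 16 clusters held 1072 of 1155 counts (92.8%). A single cluster of 99 nt held 700 counts, or 60.6% of the gene. It lay at chr13:119707833-119707931, with its midpoint 1407 nt past the last coding base of a 3′ UTR of 1785 nt (transcript Hmgcs1-202). Its far end was 151 nt before the annotated end of Hmgcs1-201 and 329 nt before that of Hmgcs1-202, so both annotated ends keep it. The cluster ranked 180 among all 87021 clusters and 26 among the 9843 clusters in 3′ UTRs, and without it Hmgcs1 would still have 455 counts.

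The other 3′ UTR clusters of Hmgcs1 were spread along the UTR. From the stop codon onward they held 21, 28, 25, 12, 35, 21, 36, 28, 104, 51 and 11 counts, before the cluster of 700, so that the highest 3 all lay in the distal part, 1088 nt or more past the last coding base. By number of 3′ UTR clusters the gene ranked 98 of 3630. The first bases of the 3 highest clusters are shown with the cluster's own bases in capitals, each line starting 10 bases before the cluster. The lines show where each cluster begins. The list gives a single count per cluster, so the positions crosslinked most within it are not known.
Cluster of 700 counts, chr13:119707823-119707852: tttaacatccACTGCTATAGATGAATAATG
Cluster of 104 counts, chr13:119707546-119707575: taagaaaattCACTAGCAAGTTCTCtggat
Cluster of 51 counts, chr13:119707597-119707626: acatgagcctCAGACtgtaaaatagaggta
None of these stretches holds GCATG, but the line for the cluster of 700 counts shows only its start and stops before the site inside it. The 3′ UTR of Hmgcs1 held GCATG in 2 places, one inside the cluster of 700 counts and one at chr13:119706748-119706752, 120 nt from a cluster of 28 counts. The clusters of 104 and 51 counts had no GCATG within 50 nt.

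**Figure D3:**
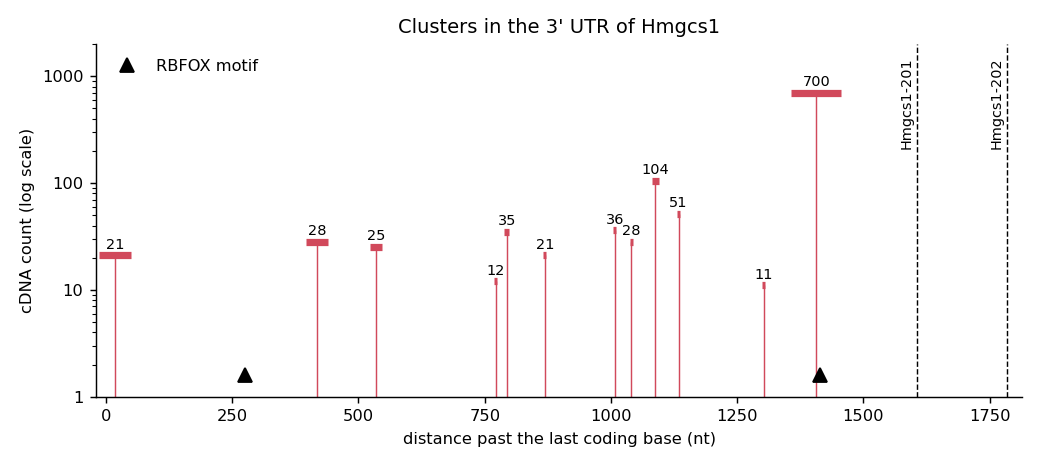
The 3′ UTR of Hmgcs1. The horizontal axis is the distance past the last coding base in nt, the vertical axis is the cDNA count on a log scale, the thick part of each mark spans the cluster (at least 6 nt drawn), triangles mark the RBFOX motif, and dashed lines mark the annotated ends of Hmgcs1-201 and Hmgcs1-202. The cluster of 700 counts stands over a motif near the distal end; the next highest has 104 counts.

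Outside the 3′ UTR, Hmgcs1 had 3 clusters in coding sequence and 1 in an intron. Exon 3 held clusters of 16 counts (chr13:119699685-119699690) and 33 counts (chr13:119699981-119700009), the second with the printed coding GCATG site in its window, and exon 8 held 24 counts (chr13:119704438-119704514). The intronic cluster was a single position, chr13:119694859, with 10 counts, the lowest in the list. It lay 31 nt upstream of exon 2 of Hmgcs1-203 (158 nt) and 130 nt upstream of the shorter exon 2 of Hmgcs1-202 (59 nt). Hmgcs1-201 joins exon 1 directly to the next exon and leaves this exon out.

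Sqle (ENSMUSG00000022351.14, chr15:59315077-59331192, plus strand) encodes squalene epoxidase, which oxidises squalene in the branch committed to sterols. It had 3 clusters. The highest, of 29 counts, lay in the 3′ UTR at chr15:59330946-59331052, with its midpoint 85 nt past the last coding base of a short UTR of 278 nt, and it contained the printed Sqle site, the only GCATG in that UTR. Exon 8 held 11 counts in coding sequence (chr15:59326080-59326105). Another 11 counts lay in intron 7 at chr15:59325616-59325620, 417 nt upstream of exon 8, in a window that had sequence and no GCATG. Sqle thus shared with Hmgcs1 a 3′ UTR cluster over the motif as its highest cluster, at 29 counts against 700. Both clusters were wide, 107 and 99 nt against a median of 15.0 nt in the 8 genes, which gives the motif more room to occur. Over all 3′ UTR windows in the list, 21.7% held GCATG.

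Srebf1 (ENSMUSG00000020538.15, chr11:60199089-60222581, minus strand) encodes SREBP1, the factor better known for fatty acid synthesis genes. It had 3 clusters of 15, 19 and 15 counts. The first lay in intron 1 at chr11:60212173-60212184, 1713 nt upstream of the nearest exon, which is the first exon of Srebf1-207 and occurs in no other transcript. The second was in coding exon 4 at chr11:60206259-60206267. The third, at chr11:60202344-60202408, was in the first exon of the non-coding transcript Srebf1-212, 115 nt from exon 13 of Srebf1-201. In the coding transcripts this stretch is intron. The annotated sequence of Srebf1 held 10 GCATG sites, and none was within 50 nt of a cluster, the nearest being 531 nt away.

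Srebf2 (ENSMUSG00000022463.8, chr15:82147181-82205379, plus strand) encodes SREBP2, the main activator of the cholesterol synthesis genes. Its 13 clusters were all low, between 10 and 22 counts, with a median of 14.0, and they were scattered over the whole gene. Introns held 8 of them with 116 counts, and 4 of these lay in intron 1, which is 22.2 kb long. The others were in introns 5, 8, 11 and 15. Coding exons 3, 4 and 14 held 12, 18 and 19 counts, at chr15:82171184-82171185, chr15:82172818-82172828 and chr15:82194954-82195001. The 3′ UTR held 11 counts at chr15:82204399-82204406 and 22 counts at the single position chr15:82204609, the highest of the gene, 488 and 695 nt past the last coding base.

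Among the intronic clusters of Srebf2, 3 lay within 300 nt of an exon, the distance over which RBFOX proteins are usually mapped around regulated exons. A cluster of 14 counts (chr15:82179075-82179097) was 177 nt downstream of exon 8. Another of 19 counts (chr15:82191930-82191945) was 269 nt upstream of exon 12, and 11 counts (chr15:82196356-82196430) lay 101 nt downstream of exon 15. No annotated coding transcript that spans these exons leaves any of them out. The windows of these clusters had no sequence, and the motif could not be looked for.

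Intron 16 of Srebf2 holds the microRNA gene Mir33 (chr15:82198122-82198190, 69 nt), whose product represses the cholesterol exporter ABCA1. GCATG occurs inside the Mir33 hairpin, capitals marking the motif on the plus strand.
Mir33 hairpin, chr15:82198133-82198162: tgtagttgcattGCATGttctggcaatacc
No cluster was listed on Mir33 or in its intron of 1848 nt, and the nearest Srebf2 cluster, with 11 counts, was 1692 nt away. A cluster below 10 counts would not be in the list, so this is the absence of a listed cluster and not of binding. The 3′ UTR position of 22 counts is shown in the same way, with the crosslinked base as the capital, as it is the highest value of Srebf2.
Srebf2 3′ UTR, chr15:82204599-82204628: ggggcaggtcTagggatgggtgaaaaataa
GCATG was not within 50 nt of it, and the single GCATG in this 3′ UTR lay 189 nt away.

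Scap (ENSMUSG00000032485.14, chr9:110333288-110384950, plus strand) encodes the escort protein of the SREBPs. It had 5 clusters with 70 counts, of which 4 were intronic. Intron 3 held 10 counts at chr9:110362961-110363067 and 10 at chr9:110371012-110371047, and intron 18 held 20 at chr9:110382208-110382269 and 11 at chr9:110382587-110382594, the latter 2 lying 590 and 942 nt downstream of exon 18. None of the 4 was within 300 nt of an exon. Coding exon 4 held 19 counts at chr9:110372205-110372219. The 2 clusters with sequence, the first one in intron 3 and the coding one, had no GCATG.

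Insig1 (ENSMUSG00000045294.11, chr5:28071363-28078662, plus strand) and Insig2 encode the paired retention proteins that hold SCAP in the endoplasmic reticulum. Insig1 had 3 clusters with 51 counts. Both of its intronic clusters were in intron 4 close behind exon 4, with 13 counts at chr5:28075238-28075245 and 17 counts at chr5:28075440-28075454, 80 and 286 nt downstream of that exon. The remaining cluster was a single position in the 3′ UTR, chr5:28078172, with 21 counts, 1355 nt past the last coding base. It is shown with the position in capitals because of the bases around it.
Insig1 3′ UTR, chr5:28078162-28078191: ttttttttttTttggagggaaatgtttgaa
This position lay in a run of at least 23 T on the gene strand. Whether the run bears on the count was not tested. Insig1 had 1 GCATG in its annotated sequence, in coding exon 1 and 3723 nt from the nearest cluster. The windows of both intronic clusters had no sequence, so the motif could not be looked for beside them.

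Insig2 (ENSMUSG00000003721.14, chr1:121304353-121332589, minus strand) carried the largest number of clusters of the 8 genes, 29, and 26 of them were intronic, with 585 of 628 counts (93.2%). No cluster stood out as in Hmgcs1: counts in the introns ran from 10 to 43 with a median of 20. The highest, at chr1:121314540-121314583, held 6.85% of the gene's count. The clusters were spread along the first 3 introns of Insig2-201. Intron 1 (7.72 kb) held 11 clusters with 229 counts, intron 2 (7.27 kb) held 8 with 190 and intron 3 (4.89 kb) held 6 with 156. Per kb this was 1.43, 1.10 and 1.23 clusters, so the introns were covered at a like density. By number of intronic clusters Insig2 ranked 303 of the 8598 genes with any.

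Of the 26 intronic clusters of Insig2, 1 was within 300 nt of an exon, beside 21.8% of all intronic clusters. The nearest was 276 nt away and the farthest 3421 nt, and the median of 1622 nt was close to the 1500 nt of the whole list. That cluster, of 28 counts at chr1:121323449-121323486, was 276 nt upstream of the 53-nt first exon of Insig2-213, a start site that the other coding transcripts do not use. The remaining intronic cluster, with 10 counts at chr1:121332101-121332107, was upstream of the start of Insig2-201, in the first intron of the longer transcripts Insig2-202 and Insig2-209. No intronic cluster of Insig2 had sequence, so the motif could not be looked for at 26 of its 29 clusters. In its exons, coding exon 5 held 11 counts (chr1:121306894-121306896) and the 3′ UTR held 10 (chr1:121305815-121305825) and 22 counts (chr1:121304752-121304765). The cluster of 22 counts, 1151 nt past the last coding base, has the printed Insig2 site in its window, and only Insig2-201 among the coding transcripts with the same stop codon extends that far.

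**Figure D4:**
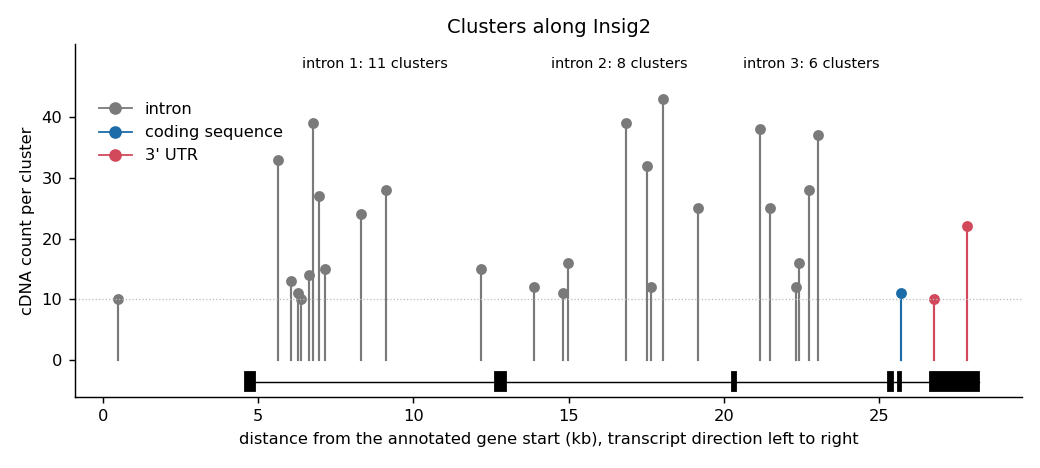
Clusters along Insig2. The horizontal axis is the distance from the annotated gene start in kb, in the direction of transcription; boxes are the exons of Insig2-201, pins are clusters with their cDNA count on a linear scale, and the dotted line is the lowest count in the list, 10. Introns 1, 2 and 3 hold 11, 8 and 6 clusters with at most 43 counts each.

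Insig2 and Insig1 differed in number of clusters, 29 against 3, and less so per length, 1.03 against 0.411 per kb. Introns held 93.2% of the count in Insig2 and 58.8% in Insig1, where 3 clusters give this share little precision.

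Mbtps1 (ENSMUSG00000031835.16, chr8:119508156-119558735, minus strand) encodes the site-1 protease, which makes the first cut in the SREBP precursors. It had the lowest sum of the 8 genes, 46 counts in 3 clusters. Intron 7 held 12 counts at chr8:119540420-119540464, 1143 nt downstream of exon 7, and intron 11 held 20 counts at chr8:119532208-119532296, 1042 nt upstream of exon 12. Coding exon 20 held 14 counts at chr8:119518163-119518258. The cluster in intron 7 had sequence without GCATG. Mbtps1 had the largest number of GCATG sites in annotated sequence, 17 in 10.5 kb, and none was within 50 nt of a cluster. The nearest was 115 nt from the cluster in exon 20.

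Across the 8 genes, 7 of the 45 intronic clusters lay within 300 nt of an annotated exon (15.6%, Wilson interval 7.75 to 28.8%), beside 21.8% of the 50492 in the whole list. The difference was not detectable at this depth, and the lower share rested on Insig2, with 1 of its 26. Without that gene, left out after seeing the data, 6 of 19 lay within 300 nt (31.6%). This is above the share of the whole list, but 19 clusters give it little precision. The 7 were those of Srebf2 (3), Insig1 (2), Hmgcs1 (1) and Insig2 (1), with counts from 10 to 28. Of the exons beside them, exon 2 of Hmgcs1 is annotated as optional and the first exon of Insig2-213 as an alternative start. The median distance was 1140 nt in the 8 genes and 1500 nt in the whole list.

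The annotated sequence of the 8 genes, 56.6 kb in all, held 58 GCATG sites, and 4 of them had a cluster within 50 nt: 2 of 7 in Hmgcs1, 1 of 5 in Sqle and 1 of 3 in Insig2. In Srebf1 (10 sites), Srebf2 (7), Scap (8), Insig1 (1) and Mbtps1 (17) there was none. Clusters with a sequenced window were 1 of 3 in Srebf1, 4 of 13 in Srebf2 and 2 of 5 in Scap. In Insig1 and in Mbtps1 they were 1 of 3 each. Sites outside annotated sequence could not be seen, so the lack of a site near these clusters is not established. The share of sites near a cluster over all annotated genes is not given here. By class, 3 of the 18 3′ UTR windows held the motif (16.7%, Wilson interval 5.84 to 39.2%), beside 21.7% of all 3′ UTR windows, and 1 of the 6 coding windows did. Retained introns gave 3 windows without it, beside 25.7% with it among all such windows. With windows read along the spliced transcripts drawn in the gene maps, for exonic clusters only, 4 of 29 held the motif (13.8%).

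To place the 8 genes in their pathway, the clusters of 3 further lists were counted. Of all annotated protein-coding genes, expressed in hepatocytes or not, 41.8% had a cluster. The lists were chosen with earlier results of these data known, so their shares of genes with a cluster are descriptions only. Among 18 other enzymes of cholesterol synthesis, 13 had a cluster (64 clusters, 1261 counts). The highest sums were those of the 3-ketosteroid reductase gene Hsd17b7 with 271 counts in 9 clusters, of the mevalonate kinase gene Mvk with 211 in 11 and of Msmo1, a sterol methyl oxidase gene, with 138 in 8. All 9 clusters of Hsd17b7 were in the 3′ UTR, as most of those of Hmgcs1 were, whereas 10 of the 11 in Mvk were intronic. No cluster was listed in Acat2, Mvd, Idi1, Nsdhl or Ebp. Hmgcs1 had the highest sum of the 20 synthesis enzymes counted, itself and Sqle included.

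Among 11 other genes of SREBP control, all 11 had a cluster (53 clusters, 1422 counts), beside the same 41.8% of protein-coding genes. Mbtps2, which encodes the site-2 protease that makes the second cut, had 691 counts in 13 clusters, 370 of them in a single one, and 10 of the 13 in the 3′ UTR. Its partner protease gene Mbtps1 had 46 counts and no 3′ UTR cluster. Ube2g2, a ubiquitin-conjugating enzyme of the endoplasmic reticulum, had 158 counts, and Faf2, an adaptor of protein extraction from that membrane, had 137. Among 4 further sterol-related genes outside synthesis, 3 had a cluster (11 clusters, 178 counts). They were the lysosomal cholesterol exporter gene Npc1 with 87 counts, Stard4, which encodes a sterol transfer protein, with 69, and Npc2 with 22. Mylip, which encodes a ubiquitin ligase, had none listed.

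The median summed count of the genes with a cluster was 60.5 in the 8 genes and 72.0 in the other synthesis enzymes. It was 69.0 both in the other control genes and in the sterol-related genes, beside 53.0 over all genes with a cluster. The intronic shares were 60.0%, 53.1% (Wilson interval 41.1 to 64.8%), 49.1% (36.1 to 62.1%) and 45.5% (21.3 to 72.0%) in that order, with overlapping intervals. The shares of windows with GCATG were 14.3%, 11.1% (3.85 to 28.1%), 28.0% (14.3 to 47.6%) and 16.7% (3.01 to 56.4%), which also overlap.

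**Figure D5:**
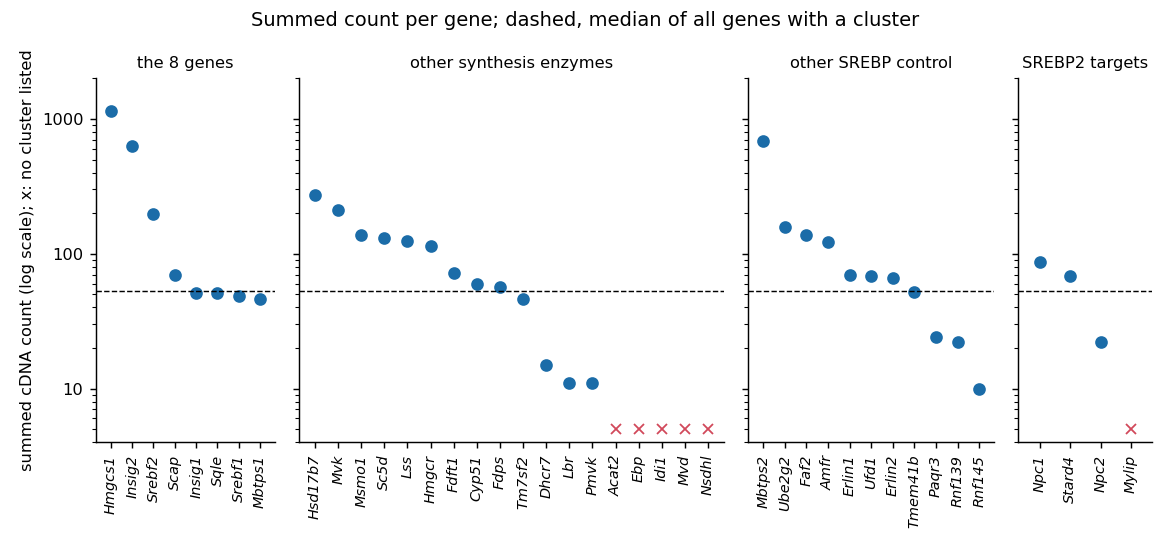
Summed cDNA count per gene on a log scale for the 8 genes and 3 lists of related genes; each point is a gene, crosses are genes without a listed cluster, and the dashed line is the median of all genes with a cluster, 53.0. Hmgcs1 and Insig2 stand at 1155 and 628, beside Mbtps2 at 691, and 4 of the 8 genes lie just under the line. The panel headed SREBP2 targets holds the further sterol-related genes, whose regulation by SREBP2 was not tested.

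The label of the cells was checked against marker genes. Of 7 hepatocyte markers, 6 had clusters (189 clusters, 13044 counts), and Serpina1a had none listed. Of 20 markers of Kupffer, endothelial, stellate and bile duct cells, 4 had clusters (7 clusters, 189 counts), 150 of these counts in Reln. Over all annotated protein-coding genes the share with a cluster was 41.8%. A cluster needs both the RNA and its crosslinking to RBFOX2, so these counts do not measure how pure the cells were. Counts per cluster in the whole list ran from 10 to 186971 with a median of 17, and the median in the 8 genes was 17 as well, with 7 clusters at the minimum of 10. The narrowest cluster in the 8 genes covered 1 nt, the widest 121 nt and the median one 15.0 nt. Heptamers that resemble the start of the library adaptor, found in other clusters of this list 6 to 17 nt downstream of the cluster start, were looked for in the 33 clusters of the 8 genes with sequence there. None of the 33 had 1 of the 3 heptamers (0%, Wilson upper bound 10.4%), beside 1.59% of all clusters inside genes.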

How the data were processed

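RBFOX2 eiCLIP was measured in 3 libraries of primary mouse hepatocytes. As the methods of the study and the submitters' processing notes describe, the authors trimmed adaptors with cutadapt, dropped reads under 18 nt, aligned the rest end to end to GRCm38 (mm10) with STAR 2.4.2a, kept unique alignments, and collapsed duplicates by position and random barcode. They grouped cDNA starts with Paraclu and deposited 1 pooled cluster list with a whole-number count per cluster, which is taken here as cDNA starts from its values (all at least 10) and is not normalised. Input libraries were not used here, and the depth of each library is not given in the sources used here.

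Clusters were annotated by their midpoint on their own strand with GENCODE M21 (the study names release M20), taking coding sequence first, then UTRs (3′ before 5′), exons without coding sequence and introns. Transcripts of the retained-intron type defined no exons, and exon numbers follow the coding transcript with the longest coding sequence. GCATG was searched on the gene strand in the cluster and 50 nt on each side, where annotated transcripts covered all of it. No test between groups was possible with 1 pooled list; shares have Wilson and sums exact Poisson 95% intervals. The text gives every exonic cluster, each intronic cluster within 300 nt of an exon, each cluster with GCATG and the highest of each gene; of the 3 other lists, the 3 highest sums and the genes without a cluster. Some genes of these lists are not reported here and were left out of their values. The members and lists were chosen with earlier results of these data known. The counting steps were tested on simulated clusters. Python 3.11.15, numpy 2.4.6, pandas 2.3.3, scipy 1.17.1 and matplotlib 3.10.9 were used.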

Additional observations from a re-analysis of the deposited data

Results flagged for a closer look

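Clusters near the 8 genes that the assignment rule left out were listed apart, because they enter no value above, and no control list was at hand to set them against. On the gene's own strand, within 5 kb past the annotated end, Hmgcs1 had a cluster of 11 counts 2169 nt past the end (chr13:119710422-119710437), and Insig2 had one of 14 counts 3258 nt past it (chr1:121301094-121301097) and one of 22 counts 2485 nt past it (chr1:121301834-121301903). On the opposite strand inside the span, Srebf1 had a cluster of 11 counts (chr11:60203708-60203736) and Insig2 a single position of 10 counts (chr1:121318614). All 5 lay outside annotated genes on their strand, and none reached the 39 counts of the top 10% of all clusters. Whether the first 3 belong to longer transcripts of Hmgcs1 and Insig2 was not tested.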

How the results depend on the processing

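Of 40 alternatives to the values over the 8 genes, 29 kept the value within its counting interval (shares) or within 1.5 times (counts), and 11 moved it. Set against the whole-list values given above, some shares changed sides. Matched whole-list values are given only for the flanks of 100 and 500 nt. Without Hmgcs1 the intronic share (74.6%, Wilson interval 62.2 to 83.9%) lay above the 68.6% of protein-coding genes, which its interval contains. The share within 300 nt of an exon lay above 21.8% without Insig2. The GCATG share lay above 20.1% with both count filters (23.5% at or above the median count, 4 of 17 windows). These last shares rest on few clusters and have no interval here, so the changes of side may be counting error. Keeping clusters at or above the median count of 17 left 38 clusters and an intronic share of 47.4%. Keeping the top 10% of counts (at least 39) left 6 clusters with 976 counts in 2 of the 8 genes, Hmgcs1 and Insig2, with 0 of 3 intronic clusters within 300 nt of an exon and GCATG in 33.3% of the windows (1 of 3). Within 100 nt of an exon lay 4.44% of the intronic clusters (Wilson interval 1.23 to 14.8%), beside 10.9% of all intronic clusters in the list. Within 500 nt it was 24.4% (14.2 to 38.7%), beside 29.2%. Both intervals contain the whole-list share. Leaving out genes was an alternative chosen after seeing the data. The intronic share was 41.3% without Insig2 and 74.6% without Hmgcs1, and without Insig2 31.6% of the intronic clusters (6 of 19) were within 300 nt of an exon. Without the highest Hmgcs1 cluster, also chosen after seeing the data, the sum over the 8 genes was 1548. Of 16 sums per gene under both count filters, 12 moved by more than 1.5 times, all downward by construction. Leaving out a library was not run and no paired analysis was possible because the authors pooled the 3 libraries of a single group. Depth limits the low genes most: clusters under 10 counts are not listed, and 5 of the 8 genes rest on 3 to 5 clusters.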
